A study of Mus musculus with 4 samples.

Results

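The genes of the constitutive proteasome were followed through the cells of mouse pancreatic islets. Members were the genes whose symbol begins with Psm, one of the letters a to g and a number, without pseudogenes and without Psmb8, Psmb9 and Psmb10, the inducible immunoproteasome subunits. The rule took 47 of the 32285 genes in the matrix. They comprise 14 core subunits, which form the rings of the barrel, 17 regulatory subunits of base and lid, 5 activators, 7 assembly chaperones, 1 inhibitor, 2 tissue-restricted core subunits and Psmc3ip. Psmc3ip met the rule by its symbol, but its product is a meiotic recombination factor and no subunit.

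Single-cell RNA-seq was carried out with 10x Genomics libraries on dispersed islets of NOD mice, a strain that develops autoimmune diabetes. The labels name 2 samples of the genotype Xbp1β-/-, in which tamoxifen induced deletion of Xbp1, and 2 samples of the genotype Xbp1fl/fl, which carry the floxed allele. All mice were 5 weeks old and all received tamoxifen at 10 mg/ml by intraperitoneal injection on 5 consecutive days. The driver of the Cre recombinase is not given in the labels used here, and the islets spent a night in culture before dissociation.

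The matrix pools 4 libraries, marked by a number from 1 to 4 on each barcode, and 0 of these numbers equals a sample's label. No label therefore ties a library to a genotype, no genotypes were compared and no p-value is given. Values are listed for libraries 1 to 4 in that order, which carries no meaning.

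The proteasome is the main protease of the cytosol and nucleus. Its barrel-shaped core holds the cutting sites of 3 beta subunits inside, and a regulatory particle at its end recognises ubiquitin-tagged proteins, unfolds them with a ring of ATPases and feeds them in. Activators of another kind, which Psme1, Psme2, Psme3 and Psme4 encode, can take the place of the regulatory particle. Islet beta cells make large amounts of proinsulin, and misfolded chains that leave the endoplasmic reticulum are degraded by the proteasome.

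Of 19987 barcodes, 16146 were kept as cells, 3635, 5268, 3455 and 3788 per library, from libraries of 82963911 to 178396311 unique molecular identifiers (UMIs, each counting 1 captured transcript). Between 12.0% and 29.7% of a library's barcodes were removed, and 28 barcode sequences of kept cells occurred in more than 1 library. Beta cells were those with at least 5% of their UMIs from Ins2, an insulin gene, alpha cells those with at least 5% from Gcg, the glucagon gene, and delta cells those with at least 3% from Sst, the somatostatin gene. Cells past several of these thresholds were kept apart. Beta cells were split at 0.5% of UMIs from Spp1, which encodes the secreted protein osteopontin. Levels are counts per 1000000 UMIs (CPM) summed over the cells of a class and library, the total leaving out 7 hormone genes, so each is a share of a class's other transcripts. Fewer cells of a subtype in a class and less RNA per cell cannot be told apart in such sums.

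The libraries differed in makeup. Spp1-high cells were 60.3%, 3.92%, 51.4% and 9.86% of the beta cells, with exact binomial 95% intervals of 56.2 to 64.2%, 3.29 to 4.63%, 47.7 to 55.1% and 8.65 to 11.2%. The classes held 355, 131, 377 and 219 Spp1-high beta cells, 234, 3211, 356 and 2002 Spp1-low beta cells, 252, 769, 298 and 727 alpha cells, 220, 426, 334 and 403 delta cells, and 2498, 475, 1959 and 269 other cells. The split passed through few cells: 8 to 33 beta cells per library lay between 0.5% and 0.6% of UMIs from Spp1, and 9 to 49 between 0.4% and 0.5%. The 5 beta cell markers other than hormones summed to 1809 to 3648 CPM in Spp1-low beta cells and to 39.1 to 117 CPM in alpha cells. The 4 alpha cell markers summed to 5844 to 8532 CPM in alpha cells, but also to 3090, 568, 3270 and 393 CPM in Spp1-low beta cells. The 3 delta cell markers summed to 8719 to 12727 CPM in delta cells and to 206 to 580 CPM in Spp1-low beta cells. None of these markers was at 0 in any class. Xbp1, the deleted gene, had 56.4, 209, 46.3 and 212 CPM in Spp1-high beta cells and 128, 228, 109 and 222 CPM in Spp1-low beta cells. It had 200.2, 171, 179 and 165 CPM in alpha cells and 201, 236, 195 and 224 CPM in delta cells. In beta cells it was thus lower in libraries 1 and 3 than in libraries 2 and 4, and no genotype was assigned from these values. Other cells were mixed and differed between libraries: pancreatic polypeptide cell genes summed to 5406, 133120, 11025 and 232860 CPM in them.

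The promoters of 4 genes are shown because these are members whose levels differed between beta and alpha cells, or between beta cells and every other class, and because their windows hold a sequence motif of a factor known to act on proteasome or activator genes. Capitals mark the motif. Psmb5, Psmc6 and Psmd12 hold TGACNNNGC, the core of the element bound by Nfe2l1 and Nfe2l2, which drive proteasome genes, and Psme1 holds GAAA, any 2 bases and GAAA, the core of the interferon response element. Each window runs from 250 bases before to 50 bases after the RefSeq transcription start in GRCm38.p6. Psmb5 lies at chr14:54617946-54618245 on the minus strand, with the match beginning 47 bases before the start. Psmc6 lies at chr14:45329574-45329873 and Psmd12 at chr11:107479278-107479577, both on the plus strand, with matches on the reverse strand that begin 227 and 247 bases before the start. Psme1 lies at chr14:55578244-55578543 on the plus strand, with a reverse-strand match 9 bases past the start. The whole Psme1 window lies inside the gene's span in another annotation, GENCODE M21, chr14:55578123-55581529. The RefSeq start used here is thus downstream of the GENCODE start.
Psmb5: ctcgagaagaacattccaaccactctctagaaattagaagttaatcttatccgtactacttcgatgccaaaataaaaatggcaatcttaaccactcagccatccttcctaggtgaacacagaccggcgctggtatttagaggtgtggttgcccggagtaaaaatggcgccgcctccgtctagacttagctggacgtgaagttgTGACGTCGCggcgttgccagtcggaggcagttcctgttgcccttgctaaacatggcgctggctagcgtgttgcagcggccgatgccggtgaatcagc
Psmc6: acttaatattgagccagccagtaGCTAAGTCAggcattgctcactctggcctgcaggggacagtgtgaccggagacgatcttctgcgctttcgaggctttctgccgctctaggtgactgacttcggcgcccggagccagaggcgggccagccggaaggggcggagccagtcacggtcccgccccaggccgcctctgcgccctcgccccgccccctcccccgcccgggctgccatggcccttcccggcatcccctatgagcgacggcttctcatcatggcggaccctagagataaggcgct
Psmd12: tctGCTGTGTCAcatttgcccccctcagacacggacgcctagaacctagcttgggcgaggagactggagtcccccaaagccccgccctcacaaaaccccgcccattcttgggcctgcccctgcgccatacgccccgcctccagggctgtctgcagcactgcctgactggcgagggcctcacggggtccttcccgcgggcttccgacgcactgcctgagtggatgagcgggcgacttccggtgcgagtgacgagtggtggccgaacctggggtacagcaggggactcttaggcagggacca
Psme1: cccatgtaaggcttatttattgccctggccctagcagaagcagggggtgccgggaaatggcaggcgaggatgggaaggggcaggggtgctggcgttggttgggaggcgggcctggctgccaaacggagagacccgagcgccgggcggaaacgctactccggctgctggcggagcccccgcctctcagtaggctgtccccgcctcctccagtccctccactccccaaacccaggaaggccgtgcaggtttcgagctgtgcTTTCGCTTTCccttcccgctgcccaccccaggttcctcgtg

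A window was found for 39 of the 47 members. On either strand, TGACNNNGC occurred in 6 of the 39 (Psmb5, Psmb6, Psmc6, Psmd9, Psmd12 and Psme4), or 15.4%, against 14.0% of the 27025 genes with a window. The interferon response core occurred in 5 (Psmb3, Psmd4, Psmd9, Psme1 and Psmg4), or 12.8%, against 3.99% of all genes. The ETS core CCGGAAGT occurred in 9 members, or 23.1%, against 4.31% of all genes. CCAAT occurred in 14 members, or 35.9%, against 41.1%, and the nuclear respiratory factor motif, GCGC then AT then GCGC, in 2, or 5.13%, against 1.07%. In the 4 windows shown, the marked match did not overlap another of these motifs. A match is a description of letters and says nothing about binding.

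With hormone transcripts set aside, the core and regulatory subunits together made up a larger share of the transcripts in beta and delta cells than in alpha cells. Over the 31 ring, base and lid subunits, the median cell had 7086, 6371, 6657 and 6571 CPM among Spp1-high beta cells and 6269, 6546, 5972 and 6875 CPM among Spp1-low beta cells. The median was 4210, 4593, 4268 and 4951 CPM in alpha cells and 5891, 6172, 5687 and 6706 CPM in delta cells. Alpha cells were the lowest class in every library on this scale. The same subunits, with all genes in the total, summed to 3353, 2905, 3388 and 3101 CPM in Spp1-low beta cells, 3644, 3556, 3311 and 3786 CPM in alpha cells and 4672, 4542, 4378 and 4794 CPM in delta cells, so Spp1-low beta cells were below alpha cells in 3 of the 4 libraries. Alpha cells also had fewer UMIs per cell, at medians of 11764, 12488, 12977 and 11251 against 46015, 42178, 48098 and 37238 in Spp1-low beta cells, and 14476 to 21976 in delta cells.

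**Figure D1:**
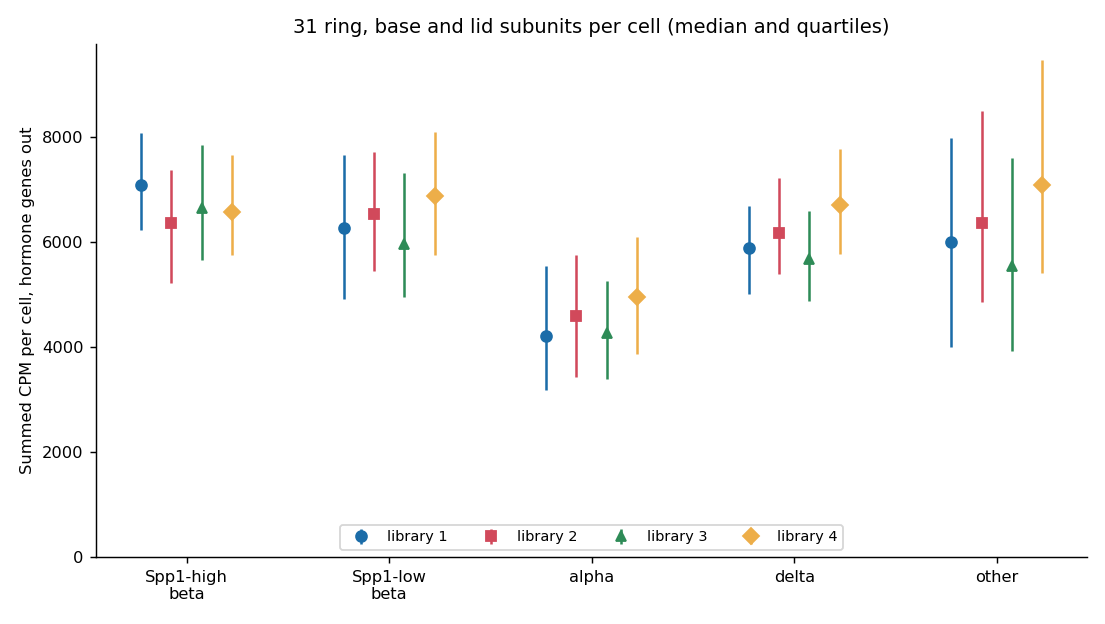
Per-cell level of the 31 core, base and lid subunits (CPM with hormone genes out of the total) by library and cell class; points are medians over cells and bars run from the lower to the upper quartile. The alpha cell medians, 4210 to 4951 CPM, are the lowest of the 5 classes in each library.

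Set against alpha cells, Spp1-low beta cells had more core and more regulatory subunit transcripts in every library. The 14 core subunits summed to 3787, 4074, 3668 and 4229 CPM in Spp1-low beta cells and to 3006, 3131, 2874 and 3270 CPM in alpha cells. The fold was 1.26, 1.30, 1.28 and 1.29. The 17 regulatory subunits summed to 2580, 2802, 2496 and 2925 CPM in Spp1-low beta cells and to 1938, 1975, 1886 and 2077 CPM in alpha cells, a fold of 1.33, 1.42, 1.32 and 1.41. The ratio of summed regulatory to summed core transcripts was 0.681, 0.688, 0.680 and 0.692 in Spp1-low beta cells and 0.645, 0.631, 0.656 and 0.635 in alpha cells, with no overlap between the classes. This ratio needs no total. The other directions against alpha cells are given for totals without hormone genes, and some turn with all genes in the total. With all genes in the total, the median log2 ratio of the members was -0.22 instead of 0.33 and that of all genes -0.42 instead of 0.00. Hormone genes took 47.3%, 57.8%, 45.0% and 56.7% of the UMIs of Spp1-low beta cells and 26.3%, 30.3%, 30.4% and 29.2% of those of alpha cells. The median mitochondrial share was 1.91%, 1.89%, 1.95% and 1.74% in Spp1-low beta cells and 3.63%, 3.74%, 3.54% and 3.37% in alpha cells. Gm42418, a transcript that overlaps ribosomal RNA, had 3864, 5730, 3005 and 9452 CPM in Spp1-low beta cells and 19242, 22672, 20904 and 31492 CPM in alpha cells. With both also left out of the total, an alternative added after seeing the data, the median log2 ratio of the members was 0.29.

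For single genes, 44 of the 47 members had enough UMIs to be compared, at least 50 in each library summed over both classes. A member was called higher or lower when its CPM, with 5 CPM added to both sides, differed by at least 0.32 on the log2 scale in the same direction in all 4 libraries, a rule of size and not a test. In Spp1-low beta over alpha cells, 16 members were called higher, where 16.9% of the 10582 genes compared were. Called lower was 1 member, where 14.9% of all genes were. At 1.5-fold in every library, 5 were higher, where 8.92% of genes were, and 0 lower, where 6.94% were. Counting direction alone, 36 of the 44 were higher in every library and 1 was lower, against 3689 and 3548 of the 10582 genes.

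All 14 core subunits were higher in Spp1-low beta than in alpha cells in every library. Of the 14, 5 were called, where 16.9% of all genes were called higher. Psmb5, the catalytic subunit that cuts after hydrophobic residues, had 295, 348, 261 and 358 CPM in Spp1-low beta cells and 164, 182, 156 and 189 CPM in alpha cells. Its fold was 1.78, 1.89, 1.65 and 1.87, and the classes did not overlap. It was still higher in each library with all genes in the total, at 156, 147, 143 and 155 CPM in Spp1-low beta cells and 121, 127, 109 and 134 CPM in alpha cells. Psmb5 lies at chr14:54614119-54618022 on the minus strand (GRCm38). Psmb6, the catalytic subunit that cuts after acidic residues, had 236, 278, 222 and 285 CPM in Spp1-low beta cells and 194, 205, 188 and 214 CPM in alpha cells. Psmb7, which cuts after basic residues, had 102, 114, 96.6 and 121 CPM in Spp1-low beta cells and 87.7, 91.8, 93.5 and 99.8 CPM in alpha cells. Both were higher in each library, short of a call, and for Psmb7 the lowest Spp1-low beta value was below the highest alpha value. The other called core subunits were Psmb2 of the beta ring and Psma2, Psma4 and Psma5 of the alpha ring, which gates the entrance of the barrel.

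**Figure D2:**
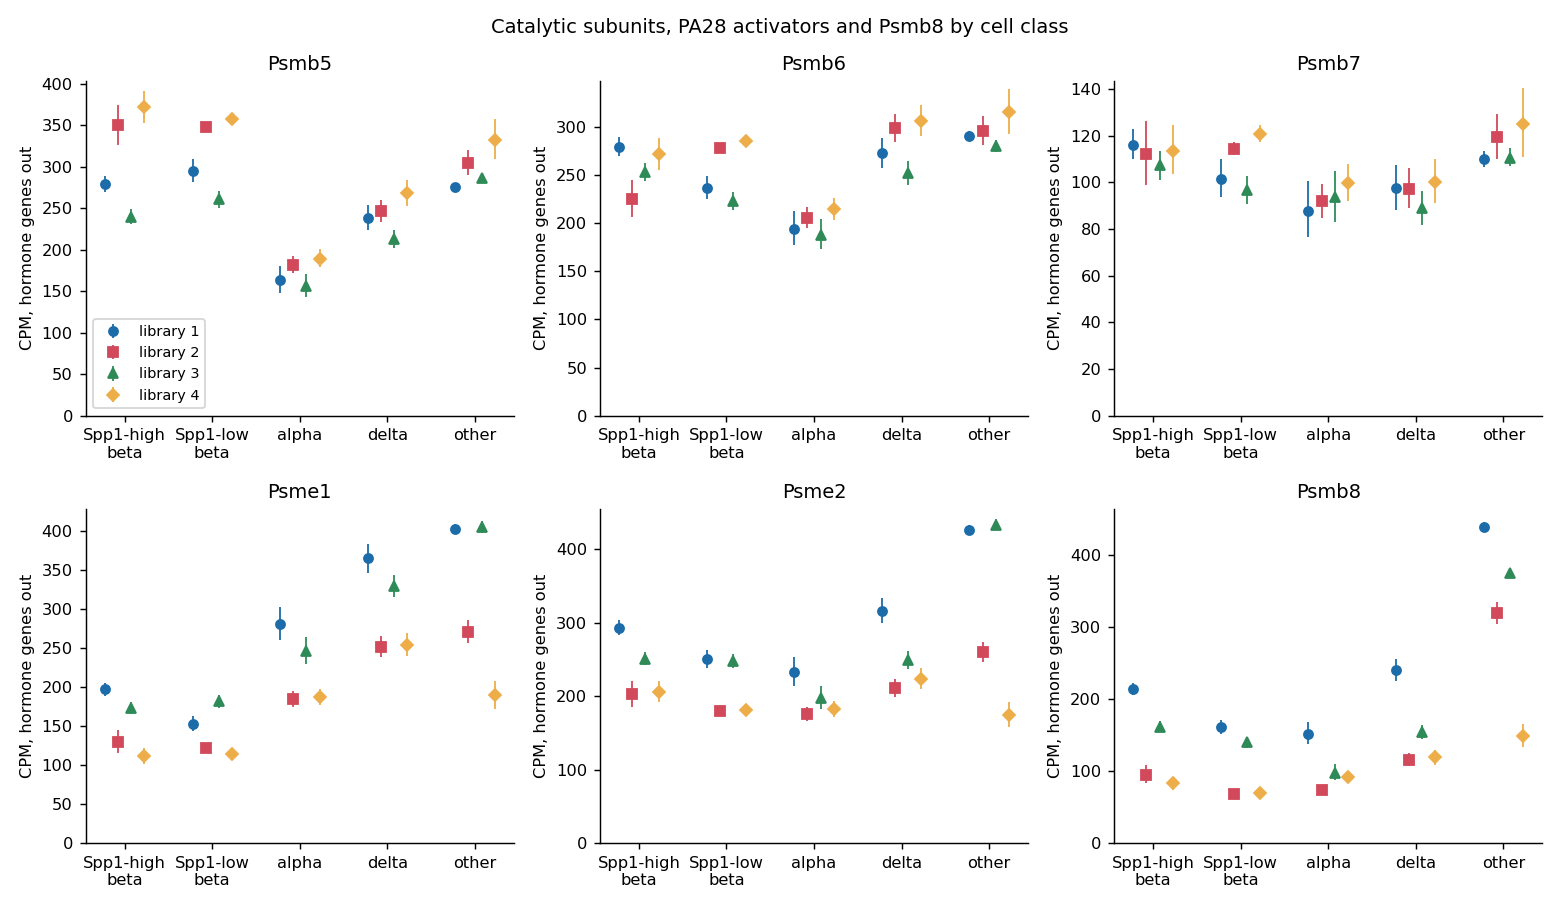
Levels (CPM with hormone genes out of the total) of the 3 catalytic subunits, Psme1, Psme2 and the immunoproteasome subunit Psmb8 in the 5 cell classes, 1 point per library with exact Poisson 95% intervals for counting error. Psmb5 is higher in beta than in alpha cells in every library, whereas Psme1 is lower in both beta classes than in alpha, delta and other cells of the same library.

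Of the 6 ATPases of the base, the motor that unfolds substrates, 5 were called higher, where 16.9% of all genes were. With all genes in the total, no member was called higher over alpha cells. Psmc6 had 161, 165, 150 and 179 CPM in Spp1-low beta cells and 92.3, 99.98, 103 and 98.4 CPM in alpha cells. Psmc4 had 128, 158, 124 and 164 CPM in Spp1-low beta cells and 77.8, 89.6, 77.5 and 93.4 CPM in alpha cells. Psmc5 had 207, 224, 196 and 244 CPM in Spp1-low beta cells and 123, 127, 120 and 150 CPM in alpha cells. For these 3 genes, named for their large ratios, no alpha value reached any Spp1-low beta value. No share of all genes without overlap is given, so this is no result about the members. Their median log2 ratios were 0.73, 0.73 and 0.71. Psmc1 and Psmc2 were called as well, and Psmc3 was higher in every library without a call.

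Among the other regulatory subunits, Psmd4, a ubiquitin receptor, was the 1 of 3 non-ATPase base subunits called higher. In the lid, which holds the enzyme that takes off ubiquitin, 4 of 8 were called, where 16.9% of all genes were. The 4 were Psmd6, Psmd8, Psmd12 and Psmd13. Psmd12 had 188, 178, 182 and 198 CPM in Spp1-low beta cells and 116, 125, 103 and 116 CPM in alpha cells. Psmd6 had 187, 193, 185 and 198 CPM in Spp1-low beta cells and 117, 113, 107 and 124 CPM in alpha cells. With hormone genes out of the total, both varied less over libraries than they differed between the classes.

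Of the 7 assembly chaperones, which help build the particles and do not stay in them, 1 was called, where 16.9% of all genes were. This was Psmd10, also known as gankyrin, with 47.8, 50.8, 45.9 and 52.1 CPM in Spp1-low beta cells and 25.9, 24.5, 20.7 and 23.8 CPM in alpha cells. Its median log2 ratio of 0.95 was the highest of any member, and rested on at least 63 UMIs in a class and library.

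The activator gene Psme1, which encodes a subunit of the interferon-inducible cap PA28, went the other way. It had 153, 123, 182 and 115 CPM in Spp1-low beta cells and 281, 185, 247 and 187 CPM in alpha cells, a log2 ratio of -0.86, -0.57, -0.43 and -0.68. It was the 1 member called lower, and no Spp1-low beta value reached the lowest alpha value. Psme2, the partner subunit in PA28, had 251, 180, 248 and 182 CPM in Spp1-low beta cells and 234, 176, 198 and 183 CPM in alpha cells, so the classes overlapped. Psme1 lies at chr14:55578123-55581529 on the plus strand and overlaps Emc9 on the other strand. The sources used here do not say whether the counting used strand, and 21 of the 47 members overlap another gene in GENCODE M21. Psme2 has a near-identical copy, Psme2b, so reads of the pair could be split between them.

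**Figure D3:**
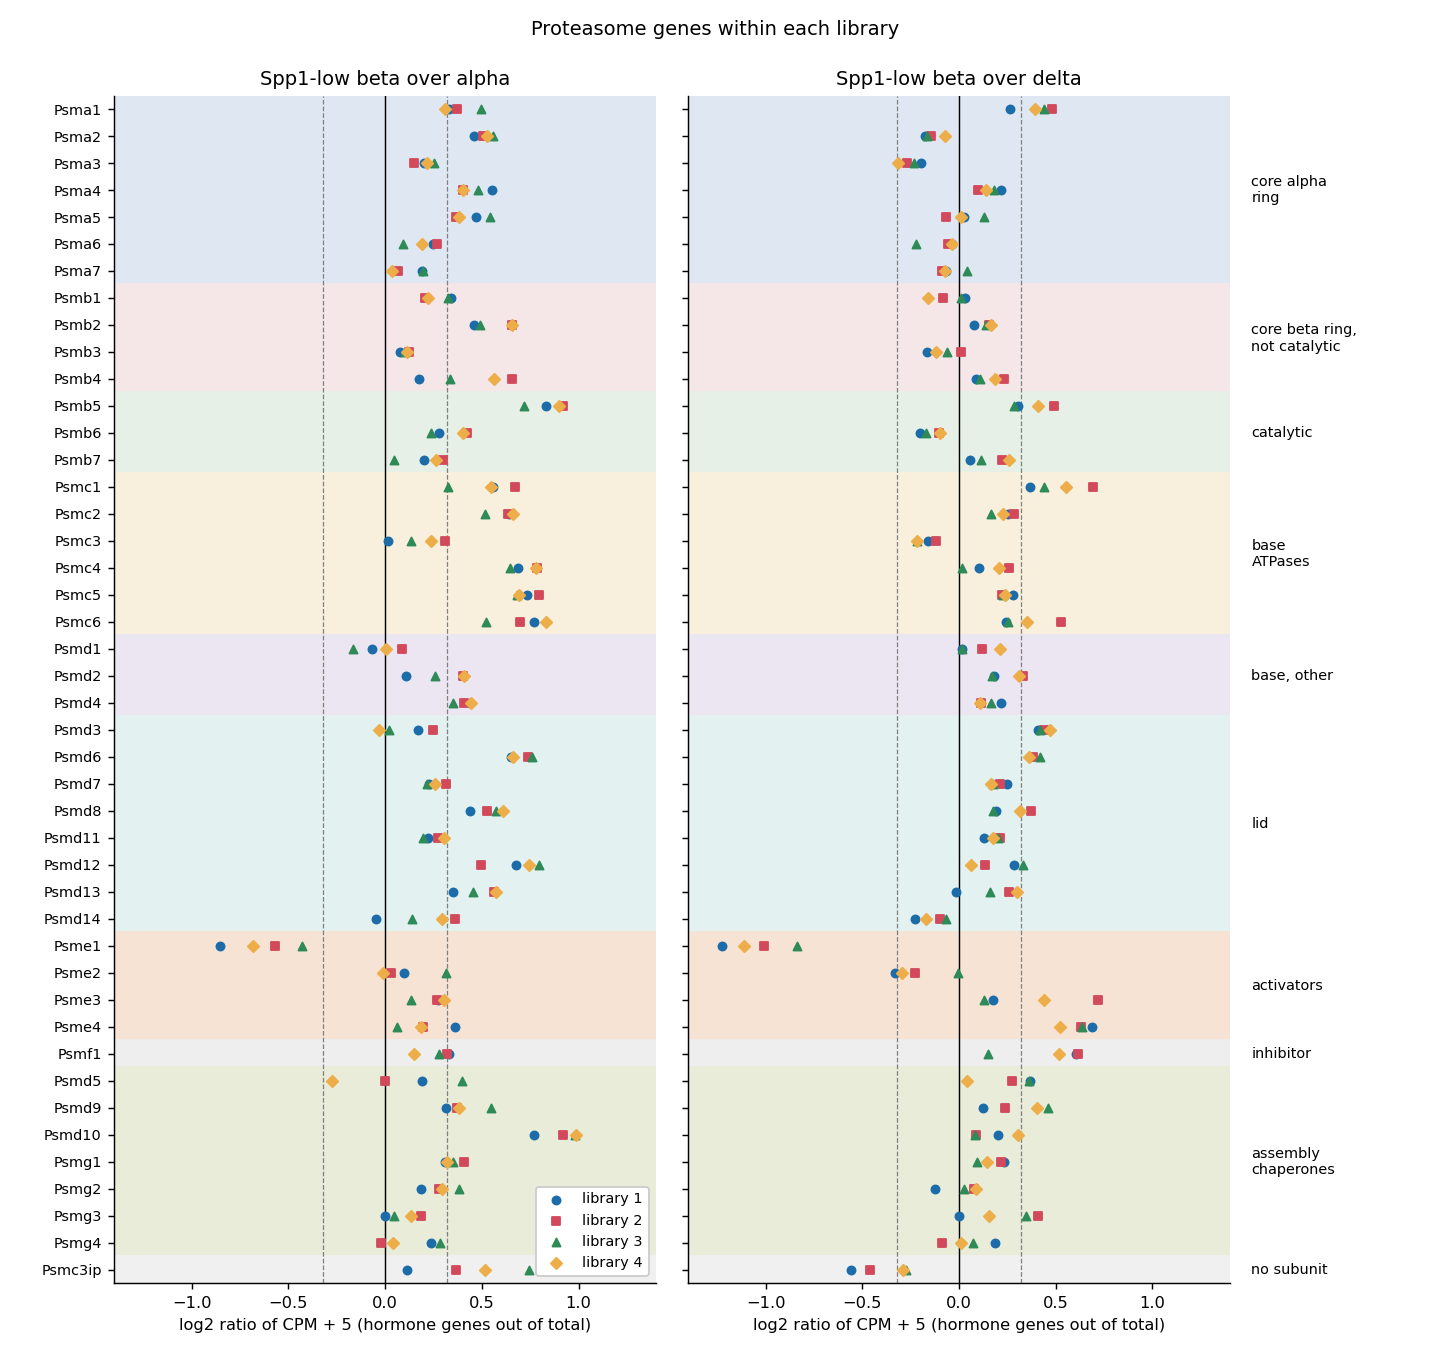
Log2 ratio of each of the 44 compared members (CPM plus 5, hormone genes out of the total) in Spp1-low beta over alpha cells (left) and over delta cells (right), 1 point per library and ordered by role; dashed lines mark 0.32 either side of 0. Most core and regulatory members lie above 0 on the left, and all 4 points of Psme1 lie below the lower line in both panels.

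Genes around the proteasome with other symbols gave a mixed picture in Spp1-low beta over alpha cells. Of 5 other subunits and helpers, Sem1, a small lid protein, and Pomp, a maturation factor of the core, were called higher. Of 4 regulators of proteasome genes, 1 was called, Nfe2l1, with 223, 240, 238 and 251 CPM in Spp1-low beta cells and 135, 136, 153 and 152 CPM in alpha cells. Of 4 ubiquitin genes, Ubb was called, with a fold of 2.11, 2.13, 2.10 and 2.08. Of 5 shuttle and unfoldase genes none was called higher and 1, Ubqln2, was called lower, with a fold of 0.62, 0.47, 0.48 and 0.40. The 3 immunoproteasome subunits that replace the catalytic ones, Psmb8, Psmb9 and Psmb10, had no call. Their summed fold was 0.902, 0.763, 1.17 and 0.662, with library 3 on the other side of 1. Psmb10 was the 1 of them that was lower in every library, at log2 ratios of -0.52, -0.57, -0.28 and -0.64. Ubb, with all genes in the total, was still called higher and Ubqln2 lower. Sem1, Pomp and Nfe2l1 were then not called, at median log2 ratios of -0.21, -0.16 and 0.16, while Psmb10, Vcp and Rad23b were called lower.

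With hormone genes out of the total, delta cells were closer than alpha cells to Spp1-low beta cells in the core. The 14 core subunits summed to 3826, 4006, 3636 and 4208 CPM in delta cells, and the fold in Spp1-low beta over delta cells was 0.990, 1.02, 1.01 and 1.00. The 95% counting intervals ran from 0.970 to 1.03 over the 4 libraries. The regulatory subunits summed to 2251, 2334, 2179 and 2504 CPM in delta cells, and the fold in Spp1-low beta over delta cells was 1.15, 1.20, 1.15 and 1.17. The regulatory to core ratio was accordingly lower in delta cells, at 0.588, 0.583, 0.599 and 0.595, and did not overlap that of Spp1-low beta cells. This ratio needs no total, so it does not depend on whether hormone genes are counted. The other values do: with all genes in the total the members' median log2 ratio was -0.43 instead of 0.16, and that of all genes was also -0.43 instead of 0.03. Alpha cells were then the closer class in the core in every library. The core summed to 1994, 1721, 2016 and 1833 CPM in Spp1-low beta cells on that total. It summed to 2216, 2181, 1999 and 2316 CPM in alpha cells and to 2941, 2870, 2738 and 3006 CPM in delta cells.

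In Spp1-low beta over delta cells, 4 members were called higher, where 11.2% of 10878 genes were, and 1 was called lower, where 9.80% were. At 1.5-fold the counts were 0 higher, where 5.25% of genes were, and 1 lower, where 5.22% were. The 4 were Psmc1, an ATPase, the lid subunits Psmd3 and Psmd6, and Psme4, which encodes an activator known for acting on histones. Psme4 had 99.2, 105, 90.0 and 99.5 CPM in Spp1-low beta cells and 59.7, 66.0, 56.0 and 67.8 CPM in delta cells, with no overlap. Psmc1 had 111, 131, 108 and 124 CPM in Spp1-low beta cells and 84.9, 79.0, 78.3 and 83.2 CPM in delta cells. Psmd3 had 114, 121, 102 and 118 CPM in Spp1-low beta cells and 84.2, 88.0, 75.1 and 83.9 CPM in delta cells. For Psmc1 and Psmd3 too, every Spp1-low beta value was above every delta value. No share of all genes without overlap is given here either, so this is no result about the members.

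The member called lower was again Psme1, with 365, 252, 330 and 255 CPM in delta cells and log2 ratios of -1.23, -1.01, -0.84 and -1.11. Psme2 had 317, 212, 249 and 224 CPM in delta cells, a median log2 ratio of -0.26, and no call. Psmf1, the proteasome inhibitor, and Psma1 of the alpha ring were higher in every library without a call, at median log2 ratios of 0.56 and 0.42. Psmc3ip, Psma3 and Psmc3 were lower in every library without a call, at -0.38, -0.25 and -0.19. Psmb5 had 238, 246, 213 and 268 CPM in delta cells, and Psmb6 had 272, 299, 252 and 306 CPM there. Psmb5 was thus higher, and Psmb6 lower, in Spp1-low beta than in delta cells in every library, both short of a call. From the fixed lists of other genes, Ddi2, a protease that activates Nfe2l1, was called higher at a median log2 ratio of 0.69, and Psmb10 lower at -0.79. Ddi2 with all genes in the total was at 0.15 with no call, and Psmb10 was still called lower.

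Other cells were the remaining cells, ductal, acinar, endothelial, stromal, immune and further endocrine ones, in a mixture that differed between libraries. Acinar cell markers summed to 4330, 30.0, 887 and 4.85 CPM in other cells. Core subunits summed to 4139, 4382, 4193 and 4511 CPM in them, and the fold in Spp1-low beta over other cells was 0.915, 0.930, 0.875 and 0.938. All 7 alpha ring subunits were lower in Spp1-low beta cells in every library, and 1 of them was called. Of the 12084 genes compared, 2761 were lower and 5536 higher in every library. The members' median log2 ratio was -0.03, with all genes at 0.25; with all genes in the total both moved, to -0.89 and -0.39.

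In Spp1-low beta over other cells, 3 members were called higher, where 26.5% of 12084 genes were, and 5 were called lower, where 14.0% were. At 1.5-fold the counts were 1 higher, where 15.7% of genes were, and 2 lower, where 10.3% were. Psme4 had 41.5, 50.4, 50.8 and 52.0 CPM in other cells, against its 90.0 to 105 CPM in Spp1-low beta cells. Psmd6 and Psmf1 were the other 2 called higher, at median log2 ratios of 0.51 and 0.50. Psme1 had 403, 272, 406 and 190 CPM in other cells, so the lowest of them, in library 4, was still above the 182 CPM that was highest in Spp1-low beta cells. Psmc3 had 85.2, 106, 87.3 and 98.9 CPM in Spp1-low beta cells and 142, 182, 162 and 171 CPM in other cells, with no overlap. Psmd14, which encodes the deubiquitinase of the lid, Psma4 and the beta ring subunit Psmb3 were called lower too. Immune cell markers summed to 877, 1369, 912 and 685 CPM in other cells, and their part in these differences was not tested.

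With hormone transcripts set aside, the constitutive subunits were little different between Spp1-high and Spp1-low beta cells, and not in 1 direction. No member was called higher or lower, where 0.748% of 11359 genes were called higher and 0.792% lower. At 1.5-fold the counts were also 0, where 0.229% of genes were higher and 0.114% lower. The core summed to 4244, 3921, 3992 and 4059 CPM in Spp1-high beta cells and the fold over Spp1-low beta cells was 1.12, 0.962, 1.09 and 0.960. The regulatory subunits summed to 2777, 2711, 2708 and 2803 CPM in Spp1-high beta cells, a fold of 1.08, 0.968, 1.09 and 0.958. Both folds were above 1 in libraries 1 and 3 and below 1 in libraries 2 and 4, and 35, 13, 31 and 13 of the 44 members were higher. With all genes in the total the core summed to 2760, 1728, 2532 and 1835 CPM in Spp1-high beta cells and to 1994, 1721, 2016 and 1833 CPM in Spp1-low beta cells, and the members' median log2 ratio was 0.18 instead of 0.04. The hormone share also differed most where the folds were above 1. It was 35.0%, 55.9%, 36.6% and 54.8% in Spp1-high beta cells and 47.3%, 57.8%, 45.0% and 56.7% in Spp1-low beta cells. The 4 alpha cell markers summed to 4319, 258, 4282 and 284 CPM in Spp1-high beta cells and to 3090, 568, 3270 and 393 CPM in Spp1-low beta cells, with the higher sums in Spp1-high cells again in libraries 1 and 3. The part of either in the folds was not tested.

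**Figure D4:**
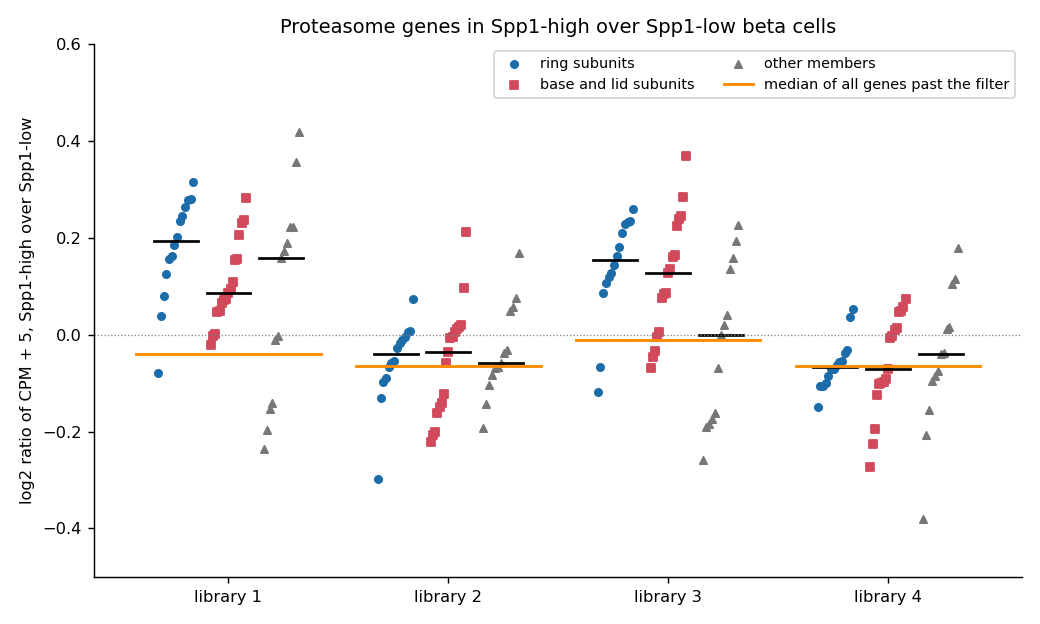
Log2 ratio of each compared member (CPM plus 5, hormone genes out of the total) in Spp1-high over Spp1-low beta cells, by library and kind of subunit; black bars are medians of the members shown and orange lines the median of all genes compared. Ring, base and lid medians lie above 0 in libraries 1 and 3 and below 0 in libraries 2 and 4.

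Counting direction alone, 4 of the 44 members were higher in every library and 4 were lower, against 922 and 2395 of the 11359 genes. The share higher was thus close to that of all genes. Psme2, Psma1, Psmd4 and the lid subunit Psmd11 were higher in Spp1-high beta cells in every library, by median log2 ratios of 0.17, 0.10, 0.09 and 0.06. Psme2 had 293, 203, 251 and 206 CPM in Spp1-high beta cells, against 251, 180, 248 and 182 CPM in Spp1-low beta cells. The assembly chaperone Psmg4, Psmf1, Psmc1 and Psmd6 were lower in every library, by -0.16, -0.14, -0.11 and -0.06. Some of these differences were very small in a library. In library 2 the log2 ratio of Psma1 was 0.0050, with a 95% counting interval of its fold from 0.909 to 1.105. In library 3 the log2 ratio of Psmf1 was -0.0014. Psmg4 had 102, 100.3, 101 and 92.5 CPM in Spp1-high beta cells and 114, 105, 115 and 108 CPM in Spp1-low beta cells. Psmb5 had 279, 350, 240 and 371 CPM in Spp1-high beta cells, which overlapped its values in Spp1-low beta cells. The summed immunoproteasome subunits had a fold of 1.29, 1.24, 1.09 and 1.09 in Spp1-high over Spp1-low beta cells, above 1 in each library. None of them was called. Psmb8 and Psmb10 were higher in every library, but Psmb9 was higher in library 1 alone. The log2 ratios of Psmb9 were 0.199, -0.0594, -0.0879 and -0.392.

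Within a class, and with hormone genes out of the total, most members varied little over the libraries. The median member's highest library was 1.15 times its lowest in Spp1-high beta cells, 1.19 in Spp1-low beta cells, 1.16 in alpha cells, 1.18 in delta cells and 1.17 in other cells. The median over all genes was 1.36, 1.24, 1.20, 1.22 and 1.45 in the same classes. A range of at least 1.5-fold was reached by Psmb5 and Psme1 in Spp1-high beta cells, where 34.5% of genes reached it, and by Psme1 alone in Spp1-low beta cells, where 20.3% did, and in alpha cells, where 7.71% did. No member reached it in delta cells, where 12.7% of genes did. In other cells 4 members did, Psmd3, Psme1, Psme2 and Psme2b, where 44.8% of genes did. Psme2b passed the filter, 50 UMIs per library on average, through libraries 1 and 3, and its lowest value rests on 4 UMIs. With all genes in the total, 29 members reached this range in Spp1-high beta cells, 3 in Spp1-low beta cells and 2 in delta cells. No share of all genes is given for that total, so these counts are no result about the members. The hormone share ran from 35.0% to 55.9% over libraries in Spp1-high beta cells, and its part was not tested. With hormone genes out, and without library 3 or without library 4, the count was 1 in Spp1-high and 0 in Spp1-low beta cells. Without library 1, or without library 2, it was 0 in alpha cells, and without library 4 it was 1 in other cells. A range of at least 2-fold was reached by 2 members in other cells, where 19.7% of genes did, and by 0 members in Spp1-high beta, Spp1-low beta, alpha and delta cells, where 12.5%, 6.42%, 2.02% and 3.21% of genes did.

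Psme1 and Psme2 had their higher values in libraries 1 and 3 in each of the 5 classes. The immunoproteasome subunits did the same: Psmb8 had 161, 69.1, 140.0 and 69.5 CPM in Spp1-low beta cells, and 240, 116, 154 and 119 CPM in delta cells. Their sum relative to the 3 catalytic subunits they replace was 0.485, 0.189, 0.479 and 0.187 in Spp1-low beta cells, 0.763, 0.383, 0.543 and 0.429 in alpha cells and 0.777, 0.400, 0.592 and 0.380 in delta cells. These values of Psme1, Psme2 and the 3 immunoproteasome subunits were higher in libraries 1 and 3 in each class with all genes in the total as well. With hormone genes out of the total, Psmb5 was lower in libraries 1 and 3 than in libraries 2 and 4 in all 5 classes. With all genes in the total that pattern held only in alpha cells, at 121, 127, 109 and 134 CPM. It was absent in Spp1-high beta, delta and other cells, and in Spp1-low beta cells, at 156, 147, 143 and 155 CPM. The core and regulatory sums in Spp1-low beta cells turned with the total. With hormone genes out they were lower in libraries 1 and 3, whereas with all genes in the total the core was higher there, at 1994, 1721, 2016 and 1833 CPM, and so were the regulatory subunits, at 1359, 1184, 1372 and 1268 CPM. No label ties a library to a genotype, so these differences are given by library only.

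The 3 members without enough UMIs for a comparison of classes were Psma8, which replaces an alpha ring subunit in testis, Psmb11, the core subunit of the thymus, and Psme2b. Psma8 had 58 UMIs and Psmb11 had 3 over all kept cells. Psme2b had 692, of which 282, 30, 214 and 4 came from other cells.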

How the data were processed

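The deposited values are UMI counts per gene and barcode, whole numbers that the authors made with Cell Ranger 6.1.2 on build mm10, per the submitters' processing notes and the file headers. Which annotation they used is not given in these sources. Coordinates came from GENCODE M21 and promoters from RefSeq GRCm38.p6.

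Cells with at least 500 genes and at most 20% mitochondrial UMIs were kept. No doublet caller was run, so doublets remain. Counts were summed per class and library, classes needing at least 50 cells, and divided by the total without 7 hormone genes. Log2 ratios used CPM plus 5 for genes with at least 50 UMIs in both classes summed, in every library. Ranges over libraries used genes with an average of 50 UMIs per library in the class. Intervals are 95% and exact, Poisson for levels, binomial for shares and for the ratio of 2 counts, and cover counting error only. Ratios were checked on simulated counts.

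Named were the catalytic subunits, Psme1, Psme2 and up to 5 members each way per comparison with the largest median ratio and 1 sign in every library, other genes coming from fixed lists. Members, lists and classes were chosen with earlier results of these data known. Class genes are no finding. Where values of classes are said not to overlap, no share of all genes doing so is given. Alternatives covered the total, cell filter, thresholds, pseudocount and each library left out. Python 3.11.15, numpy 2.4.6, scipy 1.17.1, pandas 2.3.3 and matplotlib 3.10.9 were used.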

Additional observations from a re-analysis of the deposited data

Results flagged for a closer look

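Counts outside the comparisons also held the subunits. In the barcodes removed by the filter, the 31 ring, base and lid subunits summed to 1782, 2968, 1777 and 1689 CPM in libraries 1 to 4, below every cell class. In cells past several hormone thresholds they summed to 6257, 6351, 5921 and 6664 CPM.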

How the results depend on the processing

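No paired analysis was possible because the barcode numbers carry no replicate number that pairs samples across genotypes. The ratios between classes are themselves within-library pairs, shown for each of the 4 libraries without a test. The values rest most on the total. With all genes in the total, the members' median log2 ratio was 0.18 in Spp1-high over Spp1-low beta cells, and in Spp1-low beta cells it was -0.22 over alpha, -0.43 over delta and -0.89 over other cells. Members called higher were then 0 in each of the last 3 comparisons, and called lower 2, 17 and 40. The median over all genes was itself -0.42, -0.43 and -0.39 in these 3 comparisons. No share of all genes called is given for this total, so these counts are no result about the members. In the same setting the summed ratio over alpha cells was -0.24 for core and -0.14 for regulatory subunits, and over delta cells -0.42 for regulatory subunits, -0.080 for Psmc1 and -0.16 for Psmd3. Over other cells it was -0.35 for Psmd6 and -0.23 for Psmf1. Members with a 1.5-fold range over libraries were 29 in Spp1-high beta cells, 3 in Spp1-low beta cells and 2 in delta cells, again without a share of all genes. With CPM averaged over cells, called lower were 0 members over alpha and 2 over delta cells. Over other cells 6 were called higher and 3 lower, the median was 0.082 and the summed regulatory ratio 0.071, and 4, 0 and 9 members reached the range in Spp1-high beta, alpha and other cells. At a 1.5-fold call, 5 and 0 were called over alpha, 0 higher over delta, and 1 and 2 over other cells. At a range of 2, 0 members reached it in Spp1-high beta, Spp1-low beta and alpha cells and 2 in other cells. Ins2 at 10% of UMIs gave a median of 0.30 over alpha cells and 1 member past the range in Spp1-high beta cells. A pseudocount of 1, or leaving out cells with a second hormone, gave 2 past the range in alpha cells. Without the 6% of cells with the most UMIs, 2 were called lower over delta cells. Leaving out mitochondrial genes and Gm42418 too, a choice made after seeing the data, gave a median of 0.29 over alpha cells and 0 past the range in alpha cells. Leaving out each library in turn, members past the range were 1 to 2 in Spp1-high beta, 0 to 1 in Spp1-low beta, 0 to 1 in alpha and 1 to 4 in other cells. The median over other cells was -0.082 to -0.011, the first without library 4.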
